A study of Rattus norvegicus with 8 samples.

Results

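The genes of this report are the Notch receptors Notch1, Notch2 and Notch3, the ligands Jag1, Jag2 and Dll1, the effectors Hes1, Hey1 and Heyl, and the ubiquitin ligase Dtx4, measured in rat osteoblast-like cells with and without low-level Er:YAG laser irradiation. Members were taken by name, as every non-control probe that the array design assigned to 1 of these 10 gene symbols. This gave 11 probes, 1 for each gene and a second one for Dtx4, out of 45598 rat probes on the array. The cells came from the calvaria of rats 3 to 5 days old, of the Wistar strain by the study's methods, and were grown in 35-mm dishes. No genetic change is named for the 4 non-irradiated and the 4 irradiated cultures, and both groups were given osteoinduction medium with ascorbic acid, β-glycerophosphate and dexamethasone. Irradiated cultures received 3.3 J/cm2 over 60 s without medium, and RNA of all cultures was collected at 6 h. The question was which transcripts differ between irradiated and non-irradiated cells at that time.

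Notch receptors are single-pass membrane proteins that are activated by ligands of the Jagged and Delta-like families on neighbouring cells. After ligand binding the receptor is cut by proteases, and its intracellular domain enters the nucleus, joins the DNA-binding protein RBPJ and Mastermind-like coactivators, and switches on target genes, above all the HES and HEY repressors. In bone, Notch signalling has been reported to hold back osteoblast maturation and to maintain progenitor cells. The study cites other reports in which it promoted osteogenic differentiation and formation of calcified nodules. Deltex proteins are ubiquitin ligases that act on the receptor during its traffic through the cell.

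Each probe is a single strand of 60 bases, and each has 1 spot on the array, which for every gene but Dtx4 is the only measurement. The 5 probes printed here are those the results turn on, namely Notch3, which had the largest difference between groups, Jag1, the only ligand above background, Hes1, the classical target, and both probes of Dtx4, of which 1 was above background.
Jag1: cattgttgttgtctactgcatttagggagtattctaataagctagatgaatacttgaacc
Notch3: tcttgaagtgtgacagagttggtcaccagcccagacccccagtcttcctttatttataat
Hes1: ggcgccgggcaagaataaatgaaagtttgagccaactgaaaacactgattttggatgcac
Dtx4, bright probe: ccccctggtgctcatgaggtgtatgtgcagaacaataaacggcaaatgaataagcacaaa
Dtx4, dim probe: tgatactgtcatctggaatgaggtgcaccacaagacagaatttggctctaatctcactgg

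Positions are those of the array design on build rn4. The Jag1 probe lay at chr3:125181316-125181375, the Notch3 probe at chr7:12688358-12688417 and the Hes1 probe at chr11:72605138-72605197, all 3 on the minus strand. The bright Dtx4 probe lay at chr1:215393093-215393152 and the dim one at chr1:215396291-215396350, on the minus strand with 3138 bases between them. The other probes were at chr3:4631829-4631888 for Notch1, chr2:192986490-192986549 for Notch2, chr1:54240861-54240920 for Dll1, chr2:95175974-95176033 for Hey1, chr5:142561111-142561170 for Heyl and chr6:137909983-137910029 for Jag2, whose listed span of 47 bases is shorter than the probe. Annotation of rn4 was not used here, so exon or UTR is not given. GC content ran from 35% for Notch1, Jag1 and Heyl to 55% for Notch2 and Hey1. An accession of 9 of the 11 probes belonged to the named gene in RefSeq, and those of the Jag2 probe and of the bright Dtx4 probe had no match.

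All 8 arrays lay on 1 slide and carried the same scan date. Non-irradiated arrays were in columns 1 and 3 and irradiated arrays in columns 2 and 4, so slide column and irradiation cannot be told apart. Replicate 2 stood apart, in that deviations of its arrays from their group means correlated at only 0.0542 over tested probes measured on all 8 arrays. Irradiated replicate 2 correlated at 0.439 with non-irradiated replicate 1, and non-irradiated replicate 2 at 0.303 with irradiated replicate 3. Values without replicate 2 are given below. Between 26543 and 30490 probes per array were well above background by the scanner software's own test. Of 12 osteoblast marker genes, including Col1a1, Runx2, Sp7 and Bglap, all 12 were above background on all 8 arrays. So were 4 of 5 chondrocyte, 4 of 5 skeletal muscle, 4 of 7 macrophage and 6 of 10 pericyte and smooth muscle genes. Signal above background therefore does not set osteoblasts apart from other cell types. The endothelial markers Tie1 and Emcn were above background on no array, while 5 of 8 endothelial marker genes were above it on all 8. Levels below are quantile-normalized log2 signals of the scanner's processed intensity, and a difference of 1 is a doubling. The fit was limma's, over pairs of cultures with the same replicate number. A level of 1 probe cannot be set against that of another probe, and fewer cells of a type cannot be told apart from less RNA per cell.

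Of the 11 probes, 7 passed the filter, for which all 4 arrays of either group had to be well above background, and each of the 7 was so on all 8 arrays. They represented Notch1, Notch2, Notch3, Jag1, Hes1, Hey1 and Dtx4. At an adjusted p below 0.1, 0 of the 7 were called, beside 0 of the 26391 probes tested (0.0%) by limma. At an unadjusted p below 0.05, 1 of the 7, Notch3, was called, against 2.54% of all probes in either direction, 1.42% in the higher and 1.12% in the lower one. With the methods' paired t-test, 0 of the 7 were called, against 2.8% of all probes. The fold change was above 0 for 6 of the 7 probes and below 0 for Notch2, with a median of 0.09 on the log2 scale, and it was above 0 for 48.8% of all probes. Groups overlapped for all 7 probes, whereas irradiated cultures all lay above non-irradiated ones for 0.267% of all probes and all below for 0.312%. For 6 of them, all but Notch3, the difference between groups was smaller than the SD within either group. How often this held over all probes was not counted. These SDs also hold level differences between replicate numbers, which the fit over pairs sets aside.

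**Figure D1:**
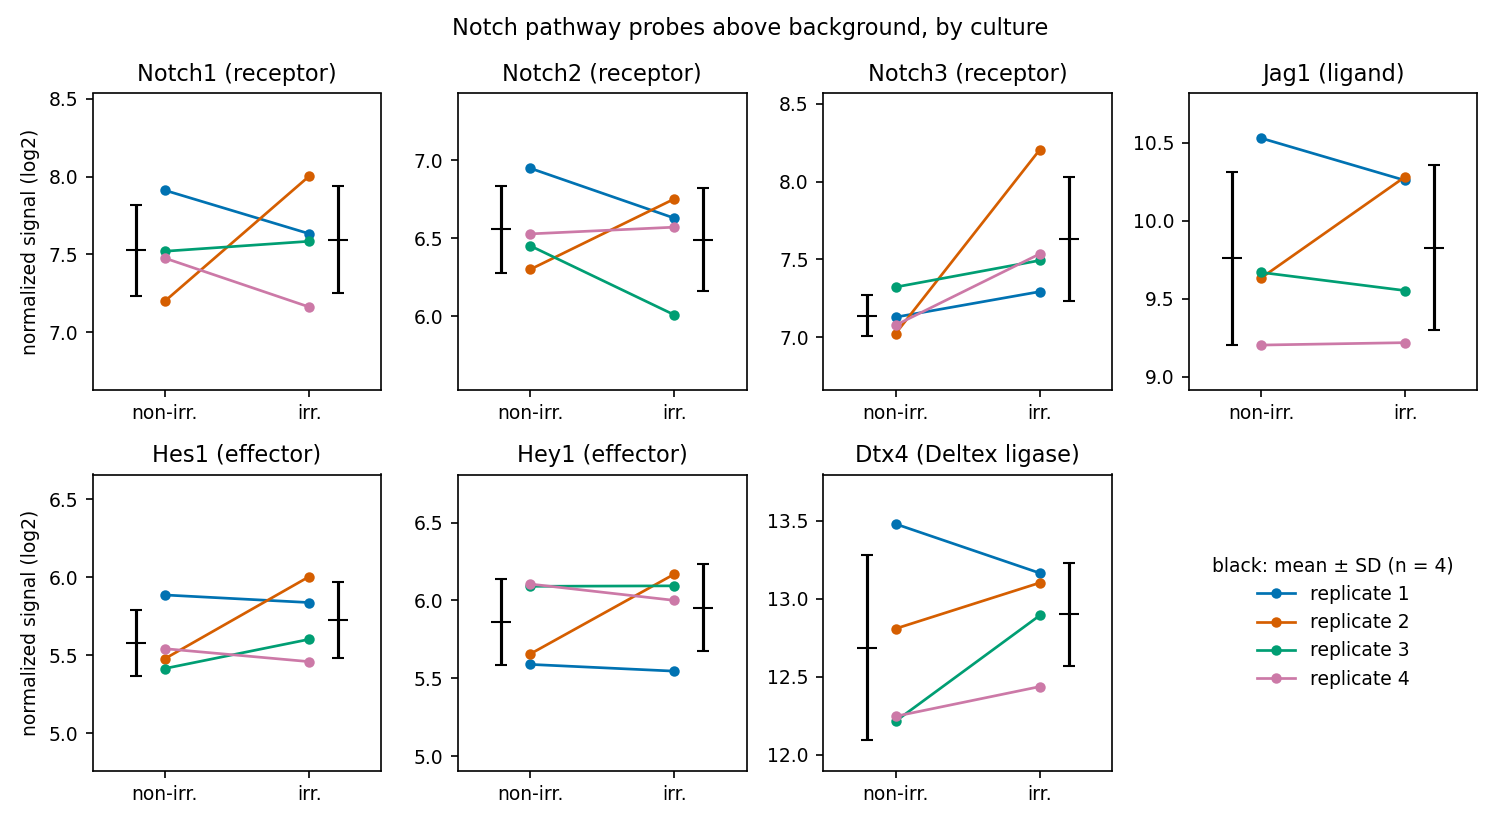
Normalized log2 signal of the 7 probes above background in non-irradiated (non-irr.) and irradiated (irr.) cultures; lines join arrays of the same replicate number, and black bars are means ± SD (n = 4). Every panel spans the same log2 range, and only Notch3 was higher after irradiation in all 4 replicate numbers.

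Among the ligands, Jag1, the Jagged ligand that activates receptors on the neighbouring cell, was the only one with a usable signal. Its levels were 10.53, 9.63, 9.67 and 9.20 in non-irradiated replicates 1 to 4 and 10.26, 10.28, 9.55 and 9.22 in irradiated replicates 1 to 4. Cultures of replicate 1 were high and those of replicate 4 low with and without the laser, and the groups overlapped over nearly their whole range. Jag1 had a log2 fold change of 0.07 ± 0.18 (SE) with a 95% confidence interval of -0.36 to 0.50, which leaves room for a difference of either sign. The limma test gave an adjusted p = 1.00, as for each of the 7 probes, and an exact sign-flip permutation test over the 4 pairs, two-sided, gave p = 0.875 for Jag1.

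Jag2 and Dll1, the other ligands, were not well above background. Jag2 was above it on 0 of 4 non-irradiated arrays and on 1 of 4 irradiated arrays, with levels between 2.59 and 3.98. Dll1, the Delta-like ligand, was above background on 0 of 8 arrays, with levels between 1.58 and 3.13, from which no direction can be read. The scanner software put the error of these signals at 17.6 to 56.1% for Jag2 and at 30.8 to 101% for Dll1, compared with 10.0 to 12.3% for the 7 tested probes. No fold change is given for either ligand.

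The receptor Notch3, known from mural cells around vessels and also present in mesenchymal cells, had the largest difference. Its levels were 7.13, 7.02, 7.32 and 7.08 in non-irradiated replicates 1 to 4 and 7.29, 8.21, 7.49 and 7.54 after irradiation. The irradiated culture was the higher one in all 4 replicate numbers, by 0.16, 1.18, 0.17 and 0.46, which held for 3.57% of all probes. Irradiated replicate 2 stood well above the other 7 cultures, and irradiated replicate 1 was below non-irradiated replicate 3, so that the groups overlapped. The mean was 7.14 ± 0.13 (SD, n = 4) without and 7.63 ± 0.40 (SD, n = 4) with the laser.

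This was a log2 fold change of 0.49 ± 0.20 (SE), or 1.41-fold, with a 95% confidence interval of 0.0076 to 0.98. The unadjusted p of limma was 0.0475, and Notch3 did not pass after adjustment over all probes (adjusted p = 1.00). The exact sign-flip permutation test gave p = 0.125, the smallest that 4 pairs allow. Without replicate 2 the mean difference of Notch3 was 0.26 ± 0.17 (SD, n = 3), and limma then gave an unadjusted p of 0.0805 and a log2 fold change of 0.26. The unadjusted p was also above 0.05 without replicate 3, at 0.0556, and without replicate 4, at 0.107.

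Notch1, the receptor most studied in osteoblasts, did not share this pattern. Its levels were 7.91, 7.20, 7.52 and 7.48 in non-irradiated replicates 1 to 4 and 7.63, 8.002, 7.58 and 7.16 in irradiated ones. The irradiated culture was clearly higher in replicate 2, nearly equal in replicate 3 and lower in replicates 1 and 4. Its log2 fold change was 0.07 ± 0.21 (SE), with a 95% confidence interval of -0.45 to 0.58 and an exact sign-flip permutation p = 0.875.

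Notch2, the receptor that shares ligands with Notch1, was the only tested member with a fold change below 0. Its levels were 6.95, 6.30, 6.45 and 6.53 without and 6.63, 6.75, 6.01 and 6.57 with the laser in replicates 1 to 4. It was lower after irradiation in replicates 1 and 3 and higher in replicates 2 and 4. For Notch2 the log2 fold change was -0.07 ± 0.18 (SE), with a 95% confidence interval of -0.50 to 0.37 and an exact sign-flip permutation p = 1.00. The interval of Notch1 includes the 0.49 of Notch3 and that of Notch2 does not, and whether the receptors differed from each other was not tested.

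Dtx4, the Deltex ubiquitin ligase, was well above background on 1 probe and not on the other. The bright probe read 13.48, 12.81, 12.21 and 12.25 in non-irradiated replicates 1 to 4 and 13.16, 13.10, 12.89 and 12.44 in irradiated replicates. The irradiated culture was lower in replicate 1 and higher in the other 3, with the widest gap in replicate 3, at 0.68. On this probe the log2 fold change was 0.21 ± 0.18 (SE), with a 95% confidence interval of -0.22 to 0.65 and an exact sign-flip permutation p = 0.5, while non-irradiated cultures alone varied by an SD of 0.59. The dim probe was above background on 0 of 8 arrays, with levels between 1.58 and 2.27. As the accession of the bright probe had no match in RefSeq, which transcript it measured is uncertain.

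The effectors Hes1, Hey1 and Heyl encode basic helix-loop-helix repressors whose transcription follows Notch activation in many cell types. Hes1 read 5.89, 5.48, 5.41 and 5.54 in non-irradiated replicates 1 to 4 and 5.84, 6.00, 5.60 and 5.46 after irradiation. The irradiated culture was higher in replicates 2 and 3 and slightly lower in replicates 1 and 4. Hes1 had a log2 fold change of 0.15 ± 0.14 (SE), with a 95% confidence interval of -0.21 to 0.50 and an exact sign-flip permutation p = 0.5.

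Hey1 read 5.59, 5.66, 6.09 and 6.11 without and 5.55, 6.17, 6.09 and 6.00 with the laser in replicates 1 to 4. Replicate 2 had the only large difference, at 0.51, and cultures of replicate 1 were low in both groups. The log2 fold change of Hey1 was 0.09 ± 0.14 (SE), with a 95% confidence interval of -0.26 to 0.45 and an exact sign-flip permutation p = 0.875. Heyl, the third of these repressors, was above background on 1 of 4 non-irradiated and 0 of 4 irradiated arrays, with levels between 1.74 and 3.68 and an estimated error of 21.9 to 93.2%, and no fold change is given for it.

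Receptors and ligands were then set against effectors. The mean log2 level over Notch1, Notch2, Notch3 and Jag1 differed between irradiated and non-irradiated arrays by -0.18, 0.77, -0.08 and 0.05 in replicates 1 to 4, and that over Hes1 and Hey1 by -0.05, 0.52, 0.10 and -0.09. In both groups of genes replicate 2 was far above 0 and the others lay near 0. The mean difference was 0.14 ± 0.43 (SD, n = 4) for receptors and ligands and 0.12 ± 0.28 (SD, n = 4) for effectors. The contrast between them was 0.02 ± 0.21 (SD, n = 4), with 2 replicate numbers on either side of 0, and was smaller than its spread. It was given no test, since the genes were chosen with earlier results known.

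**Figure D2:**
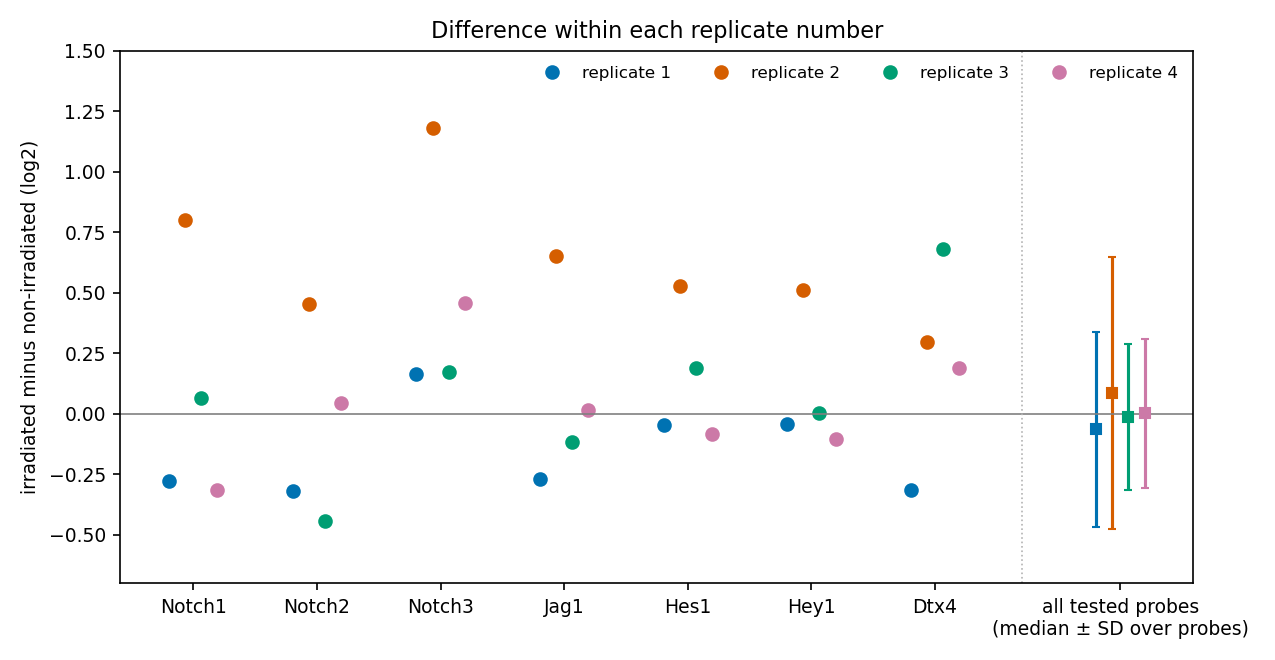
Irradiated minus non-irradiated log2 signal of each probe within each replicate number, beside the median ± SD over all probes measured on 8 arrays. Replicate 2 lies above 0 for all 7 Notch probes and is the most scattered replicate number over all probes.

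The differences of the 7 probes shared a pattern over replicate numbers. In replicate 2 the irradiated culture was higher for all 7, by 0.29 to 1.18 and with a median of 0.53, while in replicate 1 it was lower for 6 of 7, with a median of -0.27. Replicates 3 and 4 were mixed, with 5 and 4 of the 7 higher and medians of 0.06 and 0.02. Of all probes, 42.8, 56.9, 46.9 and 50.2% were higher in the irradiated culture in replicates 1 to 4. The difference was lower in replicate 1 and higher in replicate 2 for 6 of the 7 probes, all but Notch3, and for 44.1% of the 26250 probes measured on all 8 arrays. The opposite order, higher in replicate 1 and lower in replicate 2, was seen for 0 of the 7 probes and for 30.0% of all probes.

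Replicate 2 also differed most over the whole array. The SD of the differences over all probes was 0.56 in replicate 2, against 0.40, 0.30 and 0.31 in replicates 1, 3 and 4, and the median over all probes was 0.09. Across the 26250 probes, which share arrays and are not independent, the differences in replicates 1 and 2 correlated at r = -0.576, while other pairs of replicate numbers gave r between -0.0070 and 0.088. A difference above that of Notch3 in replicate 2 was seen for 1.22% of all probes, above that of Notch1 for 5.06%, of Jag1 for 9.66%, of Hes1 for 15.3%, of Hey1 for 16.1%, of Notch2 for 19.7% and of Dtx4 for 31.4%.

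Cell type markers also differed within replicate numbers, though 0 of the marker genes had an unadjusted p below 0.05 in limma. The order seen in 6 of the 7 members, lower in replicate 1 and higher in replicate 2, was found in 5 of 6 tested endothelial markers, 4 of 12 osteoblast markers, 2 of 8 markers of pericytes and smooth muscle, 3 of 4 of macrophages, 1 of 5 of chondrocytes and 2 of 4 of skeletal muscle. Over all probes that order was seen in 44.1%. The mean log2 level of the endothelial markers differed by -0.28, 0.54, 0.0036 and -0.04 in replicates 1 to 4, and their summed signal was 7063 to 13057 without and 7520 to 18177 with the laser. Such a sum follows the brightest probes of a list, here Vwf, with a mean level of 13.01 without and 13.15 with the laser. The next brightest, Kdr, had means of 8.22 and 8.53.

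Osteoblast markers went both ways. Runx2, a master regulator of the lineage, differed by -0.68 and 1.21 in replicates 1 and 2 and Alpl by -0.34 and 0.45, while the matrix gene Sparc differed by 0.43 and -0.74. Their mean differed by -0.09 to 0.04 over the 4 replicate numbers, with a summed signal of 690807 to 773751 without and 562166 to 754694 with the laser. In markers of pericytes and smooth muscle, of which 6 of 10 genes were above background on all 8 arrays, 3 of the 8 tested were higher and 5 lower in replicate 2. The mean of that list differed by -0.03, -0.22, 0.23 and 0.11, with a summed signal of 68924 to 95707 without and 66946 to 88801 with the laser. In that list Rgs5, above background on 2 of 4 non-irradiated arrays, differed by 0.07, -0.93, 0.94 and 1.46 in replicates 1 to 4. Means differed by -0.0052, 0.08, 0.25 and 0.09 for macrophages, by 0.15, -0.20, 0.12 and 0.03 for chondrocytes and by -0.34, 0.08, 0.06 and 0.12 for skeletal muscle. Summed signals of non-irradiated cultures ran from 1298 to 1458 for macrophages, from 5965 to 81846 for chondrocytes and from 218 to 2619 for skeletal muscle. The sums of these lists also follow their brightest probes. In non-irradiated cultures those were Col1a1 among osteoblast markers, with a mean of 18.21, and Col2a1 among chondrocyte markers, with a mean of 14.01. In replicate 1 Col2a1 was low, at 9.84 without and 10.23 with the laser, against 14.68 to 15.88 in the other cultures. Myh3 was high there, at 11.15 and 10.72, against 6.44 to 8.95. Runx2, Alpl, Sparc, Rgs5, Col2a1, Myh3, Vwf, Kdr and Col1a1 were named here after their values were seen. The part of other cell types in the Notch levels was not tested.

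**Figure D3:**
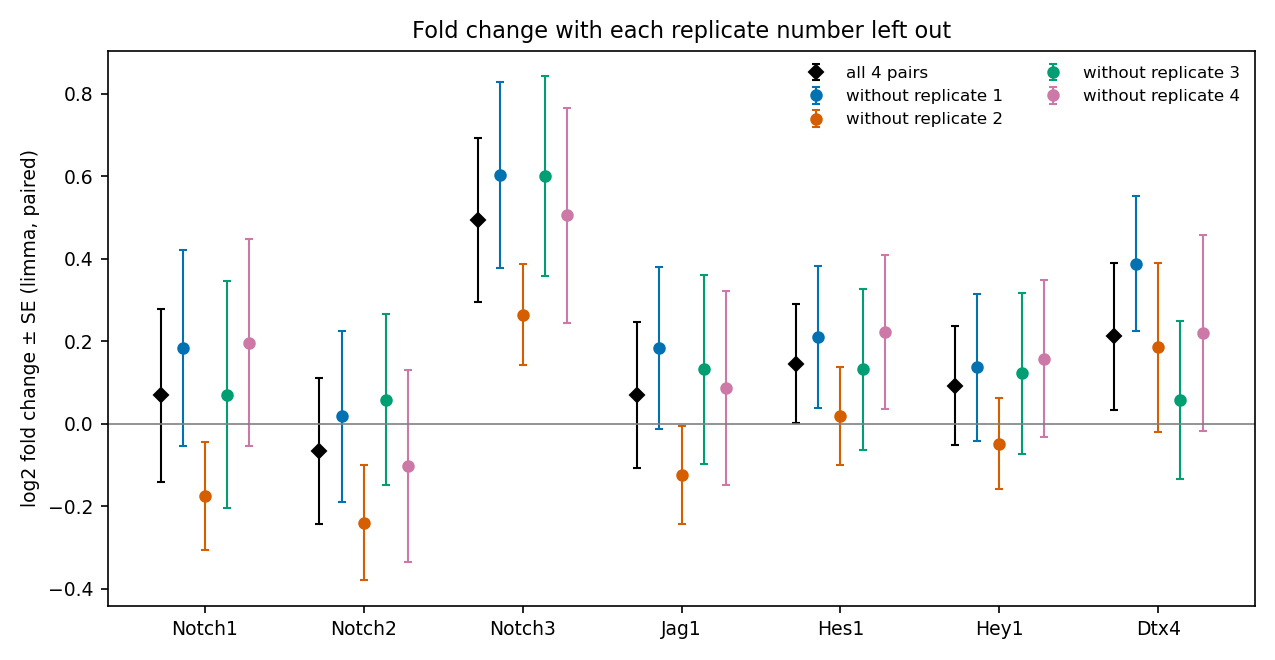
Log2 fold change ± SE of each probe in limma with all 4 replicate numbers and with each left out in turn. Without replicate 2, Notch1, Jag1 and Hey1 lie below 0 with Notch2, and Notch3, Hes1 and Dtx4 lie above 0.

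With replicate 2 left out, the value was -0.18 for Notch1, -0.24 for Notch2, -0.12 for Jag1 and -0.05 for Hey1, compared with 0.26 for Notch3, 0.02 for Hes1 and 0.18 for Dtx4. The signs of Notch1, Jag1 and Hey1 thus rested on that replicate number. That of Notch2 turned when replicate 1 or replicate 3 was left out, and those of Notch3, Hes1 and Dtx4 did not turn without any single one.

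The other genes of the pathway were read from lists of 62 genes, of which 53 had a tested probe. A gene with several probes was read from the one with the highest mean signal. Of the 53, 27 had a fold change above 0 and 26 below 0, with a median of 0.0034 on the log2 scale. Without replicate 2 these counts were 16 and 37 and the median was -0.05, and without replicate 1 the median was 0.07. Over all probes the median was -0.02 without replicate 2 and 0.01 without replicate 1. By limma 0 passed after adjustment, and 1 of the 53, Dlk1, had an unadjusted p below 0.05, against 2.54% of all probes. Over these 53 genes the median difference was -0.16, 0.13, -0.01 and 0.05 in replicates 1 to 4.

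Dlk1, a Delta-like membrane protein without the receptor-activating domain of the classical ligands, had levels of 5.95, 4.88, 4.13 and 4.35 in non-irradiated replicates 1 to 4 and of 6.16, 5.85, 4.45 and 4.63 in irradiated ones. It was higher after irradiation in all 4 replicate numbers, most in replicate 2, as were 3.57% of all probes, while the groups overlapped. Dlk1 had a log2 fold change of 0.45 ± 0.16 (SE), with a 95% confidence interval of 0.05 to 0.85 and an unadjusted p of 0.0340 in limma, and it did not pass the adjustment (adjusted p = 1.00). The other receptors and ligands had 2 of 7 tested genes above 0 and a median of -0.04. The receptor Notch4 had a log2 fold change of -0.16 ± 0.18 (SE), and the ligand Dll4 was above background on 0 of 8 arrays with both of its probes.

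Genes of receptor cleavage had fold changes below 0 in 7 of 9 and a median of -0.04. The sheddase Adam10 had a log2 fold change of -0.04 ± 0.12 (SE). The glycosylation genes, which modify the receptor in the secretory pathway, had 1 of 4 above 0 and a median of -0.06.

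In the nucleus, 7 of 8 tested genes of the transcription complex were above 0, with a median of 0.03, but without replicate 2 this was 1 of 8 and -0.08. Rbpj, the DNA-binding partner of the receptor, had a log2 fold change of 0.01 ± 0.15 (SE), with 3 probes from -0.23 to 0.01, and the coactivator Maml1 had 0.02 ± 0.11 (SE). The corepressors had 3 of 8 above 0 and a median of -0.03. Ubiquitin ligases and endocytosis genes had 9 of 12 above 0 and a median of 0.08, which without replicate 2 were 5 of 12 and -0.01, with Dtx1 at -0.12 ± 0.14 (SE) on one probe and 0.10 on the other. The value of 0.43 for Numb in that list rested on 3 pairs, since 1 outlying spot was left out, and its other probe gave -0.14. Numb was named after its values were seen.

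Among other HES/HEY and feedback genes, 5 of 10 were tested, with a median of 0.0052. Hes5 was above background on 0 of 8 arrays, Hey2 on 1 non-irradiated array, and Nrarp, a feedback inhibitor induced by Notch, on 1 non-irradiated and 2 irradiated arrays. These target genes, like Heyl, therefore gave no fold change.

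**Figure D4:**
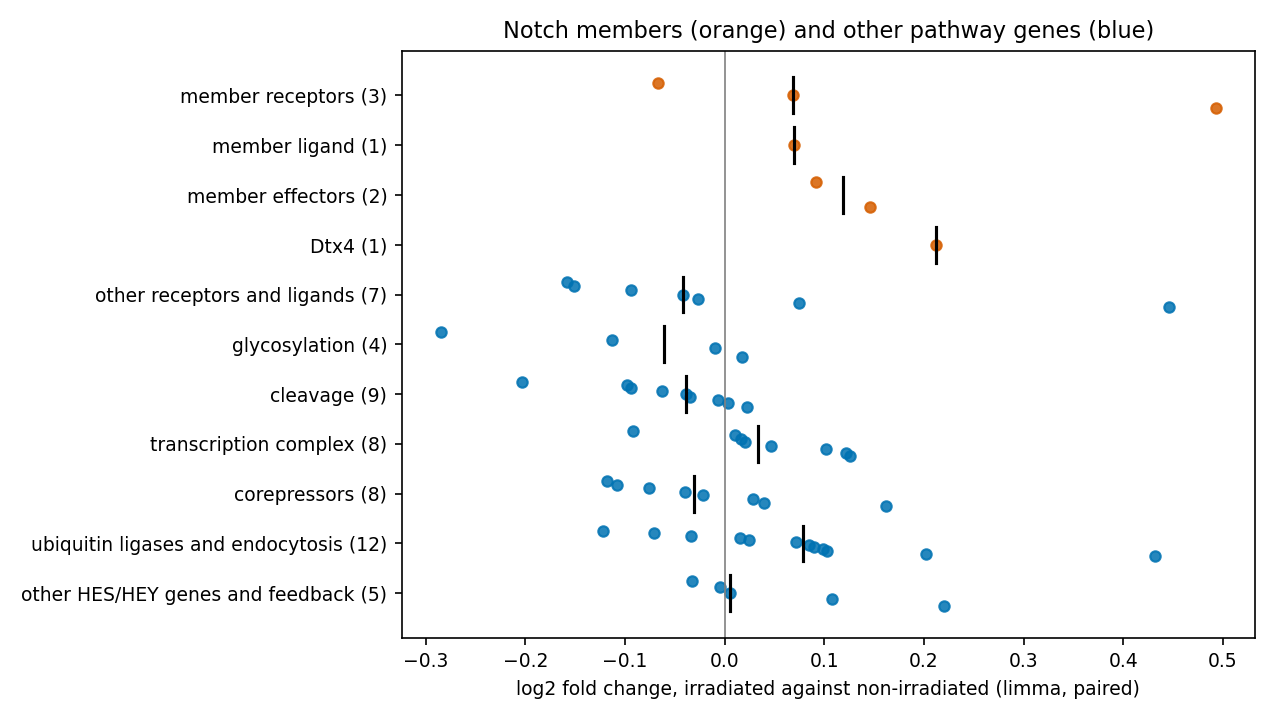
Log2 fold change in limma of the 7 Notch probes (orange) and of 53 other pathway genes (blue) by role, with the number of genes in brackets and the median as a black bar. Most values lie within 0.2 of 0, and the rightmost point is Notch3, followed by Dlk1 and Numb.

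For the 3 members with the largest fold changes, Notch3, Dtx4 and Hes1, the probes with the most similar course over the 8 arrays were sought among 17759 named probes. Likeness was the root mean square difference after centring each probe on its own mean. For Notch3, whose own SD over the arrays was 0.35, the closest were Hlcs at 0.13, Lrch2 at 0.16 and Stc1 at 0.17. For Dtx4, with an SD of 0.43, they were Arel1 at 0.06, Aif1, which is also among the macrophage markers, at 0.09 and Bptf at 0.10. Aif1 has 2 probes, of which 1 was above background on no array. The other tested macrophage markers were mixed. Itgam had the same signs as Dtx4 in replicates 1 to 4, and Cd68 was lower after irradiation in replicates 3 and 4. Cd14 differed by 0.71 and -0.71 in replicates 1 and 2. For Hes1, with an SD of 0.21, they were Zc3h15 and Rrn3 at 0.05 and Ndufb4 at 0.06. Among the members themselves, Notch1 and Hes1 were the closest pair at 0.14, and Jag1 and Hey1 the most distant at 0.63. The measure is not scaled, so it depends on how much each gene varied. Pairs of members were not set against pairs of other genes.

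RBPJ binds the core TGGGAA, so promoters from 250 bases before to 50 bases after the transcription start in RefSeq (build GRCr8) were searched for it on both strands. A promoter was at hand for 9 of the 10 genes, all but Hey1. The core was found in promoters of Hes1, Dll1 and Notch3, and in 25.7% of 33469 rat promoters of that length. The longer GTGGGAA, which contains the core, was found in Hes1 and Dll1 and in 6.29% of all promoters. CACGTG, a motif that HES and HEY proteins can bind, was found in none of the members and in 6.42% of all.

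The Hes1 promoter is shown because it holds a pair of cores close together, at positions -123 and -109 from the start and on the strand of the gene. The 250 bases before the start lie at chr11:84213046-84213295 on the minus strand of GRCr8, with the cores in capitals.
Hes1 promoter: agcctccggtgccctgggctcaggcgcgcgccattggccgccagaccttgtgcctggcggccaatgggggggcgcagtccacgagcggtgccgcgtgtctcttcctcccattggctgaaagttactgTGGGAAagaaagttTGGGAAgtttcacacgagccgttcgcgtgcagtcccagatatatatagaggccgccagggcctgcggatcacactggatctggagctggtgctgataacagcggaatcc
In Dll1 the cores were at -185 on the opposite strand and at -82 on the strand of the gene, and in Notch3 at 43 bases after the start. These matches describe the letters of the sequence, and binding was not measured.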

How the data were processed

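RNA of each culture (200 ng) was measured on 1 single-colour (Cy3) array. Spot intensity values were deposited as Feature Extraction 11.0.1.1 gives them, where the processed signal is corrected for background but not between arrays, and the authors deposited quantile-normalized log2 values as well, used here as an alternative. Here, log2 of the processed signal was quantile normalized over the 58717 rat spots. Spots marked as outlying were left out. A probe was kept if over 50% of its spots were above background on every array of either group. Of the 26404 kept, 26391 could be fitted with lmFit and eBayes (limma 3.58.1, R 4.3.3), two-sided, with Benjamini-Hochberg adjustment.

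The replicate number was a block because names of the scanner files give both arrays of a number the same animal. Deviations from group means correlated within numbers 1 to 4 at 0.608, 0.0542, 0.571 and 0.749. Irradiated replicate 2 correlated with non-irradiated replicate 1 at 0.439, and non-irradiated replicate 2 with irradiated replicate 3 at 0.303. P-values of the blocked fit rest on the spread of the differences within replicate numbers, not on that of levels between cultures. With 4 arrays per group their precision is limited. The sources used here do not say whether cells of several animals were pooled.

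Members, pathway lists and marker lists were chosen with earlier results of these data known. Named genes were all members, 10 pathway genes chosen by role (Rbpj, Maml1, Adam10, Nrarp, Hes5, Hey2, Notch4, Dll4, Dtx1 and 1 that is not reported here), any pathway gene with an unadjusted p below 0.05, and the 3 closest probes in likeness. Alternatives tried were scaling to the 75th percentile, normexp correction (offset 50), other filters, the deposited log2 values and outlying spots kept. Also tried were no block, a random block, trended robust variances, a paired t-test on the same values, averaged probes and each replicate left out.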

Additional observations from a re-analysis of the deposited data

How the results depend on the processing

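Under 14 alternatives, Notch3, Hes1 and Dtx4 kept a fold change above 0. Notch3 lay between 0.26 and 0.60 with a replicate left out and between 0.32 and 0.49 otherwise, and its unadjusted p was below 0.05 in 8 of 14. The direction turned only with a replicate left out. Notch1 ran from -0.18 to 0.20, Jag1 from -0.12 to 0.18 and Hey1 from -0.048 to 0.16, each lowest without replicate 2 and otherwise above 0. Notch2 ran from -0.24 to 0.058, with 0.017 without replicate 1 and 0.058 without replicate 3. Adjusted p-values of the members were between 0.868 and 1.00.

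Of the 7 members, 1 had an unadjusted p below 0.05 in limma. That number was 0 with normexp, without a filter on dim probes (11 probes tested) and with the paired t-test. With a replicate left out it was 0 to 1. Without the replicate block it was 1, and with a random replicate block 1. Among other pathway genes that number was 1, became 2 without a filter, 0 with the deposited log2 values, 0 without the replicate block, 0 with a random replicate block and 0 with trended robust variances, and was 0 to 1 with a replicate left out. Averaging the probes of a gene gave 21 of 53 above 0 and a median of -0.02.

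The contrast of receptors and ligands with effectors ran from -0.05 to 0.09 over the fits without 1 replicate and was -0.08 without a filter. With Dtx4 among the effectors it was -0.0089. Without replicate 1 the median of the other pathway genes was 0.07 and without replicate 2 it was -0.05, beside 0.01 and -0.02 over all probes. The cause of these changes was not tested. Signal over background limits Jag2, Dll1, Heyl and the dim Dtx4 probe, for which neither a change nor its absence could be measured.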

Other observations

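Hes7 has 2 probes on the array, 1 above background on all 8 arrays and 1 on none. As the 2 probes disagree, which transcript the bright one measured is uncertain. The bright one had a mean log2 level of 17.27 ± 0.83 (SD, n = 4) without and 17.49 ± 0.86 (SD, n = 4) with the laser and differed by -0.51, 0.50, 1.13 and -0.24 in replicates 1 to 4. Its log2 fold change was 0.22 ± 0.28 (SE), and it was picked out after its values were seen.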
